A study of Mus musculus with 10 samples.

Results

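A set of 10 genes of epithelium, lung and bone (Sftpc, Krt8, Krt18, Krt19, Krt7, Cdh1, Epcam, Ibsp, Gjb2 and Stfa1) was read in fibroblasts cultured from mouse embryos. The genes were chosen by their array values: several of them stood above background in the untreated wild-type arrays alone, so their difference between untreated wild-type cells and the rest is a description and was not tested. They were measured by 15 of the 45037 probe sets that are not controls, and 14 of the 15 were annotated to 1 of the genes alone. Stfa1 had no probe set of its own and was read through 1 annotated to Stfa1 and its relative Cstdc5 together. In all, 18194 genes were named by a probe set with a single symbol.

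The study hybridised RNA from 10 cultures or extracts to Affymetrix arrays, 1 array each, in 5 groups of 2. Cells named conditional Dicer knockout (CDKO) were untreated, or received tamoxifen as OHT (4-hydroxytamoxifen, written 4-orthohydroxy tamoxifen in the labels) at 1 µM or at 5 µM for 4 days, and cells named wild type (WT) were untreated or received 5 µM for 4 days. Dicer is the enzyme that cuts microRNA precursors, and OHT binds the estrogen receptor and is often used to switch on a Cre fused to it. The labels name neither a Cre, a strain, an embryonic age nor a clone, and their free text calls every sample a Dicer conditional knockout, so the titles were followed for line. They do not say whether arrays of 1 group came from separate cultures, so p-values measure only the spread between these arrays, which may be technical. Values are log2 GCRMA signals as deposited, and a value under 4 was taken as background.

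Simple epithelia line the inside of organs and fill their cells with pairs of keratins: a type II keratin (Krt8 or Krt7) assembles only with a type I partner (Krt18 or Krt19). Cdh1 (E-cadherin) and Epcam join epithelial cells to each other, and fibroblasts are known for lacking them. Sftpc encodes a surfactant protein of alveolar type II cells of the lung, Ibsp a sialoprotein of mineralising bone, Gjb2 the gap junction protein connexin 26, and Stfa1 a stefin, an inhibitor of cysteine proteases found in myeloid cells and epidermis.

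The fibroblast identity of the cultures was read first. Vim, the intermediate filament of mesenchymal cells, read 15.21 to 15.54 on the 10 arrays and Col1a2, a collagen I chain, 13.07 to 14.86. Of 19 measured fibroblast genes, 16 stood at 4 or above on every array. The receptor gene Pdgfra was the 1 that fell in WT cells at 5 µM (by 2.37, SE 0.46, limma adjusted p = 0.0263), a call lost without any 1 of the 4 WT arrays, and 4 fell without either CDKO 5 µM array. With array weights 3 of the 19 rose and 9 fell, and with the compared groups alone 4 rose and 10 fell. Of all 20681 probe sets tested, those settings called 12458 (5587 higher, 6871 lower) and 11308 (5016 higher, 6292 lower), so most probe sets were called there. In bulk RNA, fewer cells of a type and less RNA per cell cannot be told apart. The arrays also differed in a quality measure: the 18S ribosomal RNA control read 11.64 and 11.21 in untreated WT and 10.16 in CDKO 1 µM replicate 2, against 5.21 to 8.44 on the other 7. The difference between the 3' and 5' Gapdh controls was 0.89, 0.67 and 1.58 on those 3 arrays and at most 0.07 elsewhere.

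The stretch upstream of the start site is shown for 4 genes because it sets the genes seen in untreated WT alone (Krt8 and Ibsp) beside those seen on every array (Krt18 and Gjb2). Each is the 250 bases before the annotated start, 5′ to 3′ on the gene's strand, from RefSeq on build GRCm38.p6, with CpG dinucleotides in capitals. Krt8 lies at chr15:102004343-102004592 (minus strand), Krt18 at chr15:102027966-102028215 (plus strand), Ibsp at chr5:104299037-104299286 (plus strand) and Gjb2 at chr14:57104703-57104952 (minus strand).
Krt8: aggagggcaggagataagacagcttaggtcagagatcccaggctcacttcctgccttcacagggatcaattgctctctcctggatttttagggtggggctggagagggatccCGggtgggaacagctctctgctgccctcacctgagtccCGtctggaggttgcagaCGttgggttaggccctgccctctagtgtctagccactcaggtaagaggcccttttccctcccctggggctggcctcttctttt
Krt18: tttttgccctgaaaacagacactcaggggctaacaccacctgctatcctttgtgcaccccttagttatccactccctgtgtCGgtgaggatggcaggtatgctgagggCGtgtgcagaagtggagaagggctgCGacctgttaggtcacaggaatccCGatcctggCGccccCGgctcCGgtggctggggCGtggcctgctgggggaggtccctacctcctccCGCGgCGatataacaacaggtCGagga
Ibsp: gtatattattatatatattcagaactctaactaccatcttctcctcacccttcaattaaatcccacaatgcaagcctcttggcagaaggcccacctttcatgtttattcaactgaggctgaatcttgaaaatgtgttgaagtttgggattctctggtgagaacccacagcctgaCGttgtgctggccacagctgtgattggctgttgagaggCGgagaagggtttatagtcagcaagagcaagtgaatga
Gjb2: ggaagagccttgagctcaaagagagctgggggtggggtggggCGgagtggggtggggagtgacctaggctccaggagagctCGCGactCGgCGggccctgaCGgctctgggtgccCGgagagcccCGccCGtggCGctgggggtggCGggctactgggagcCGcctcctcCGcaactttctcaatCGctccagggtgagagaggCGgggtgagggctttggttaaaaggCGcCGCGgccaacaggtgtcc

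RefSeq windows were found for 7 of the 10 genes, and none was found for Sftpc, Krt19 and Cdh1. Krt8 held 3 CpG, Ibsp 2 and Stfa1 1, and Epcam held 8. Krt18 held 12, Krt7 16 and Gjb2 18. The median over 32851 windows of the same length was 6. The 3 windows of genes seen on at least 8 arrays were therefore the richest in CpG of the 7. The hexamer CACCTG, which Snail and Zeb repressors recognise, was searched on both strands and occurs in 17.2% of all windows. It was found once each in Krt8, Krt18, Krt7, Gjb2 and Stfa1, in 2 copies in Epcam, and not in Ibsp. The GC box GGGCGG, also searched on both strands and held by 32.7% of all windows, occurred 4 times in Krt7, 2 times in Gjb2, once in Epcam and not in the other 4. Matches are descriptions of these letters only.

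A total of 5 of the genes gave a signal in untreated WT cells and nowhere else, 4 were expressed on most or all arrays, and Epcam lay at the edge of detection. In the first set were Sftpc, Krt8, Cdh1, Ibsp and the probe set shared by Stfa1 and Cstdc5: both untreated WT arrays stood at 4 or above and the other 8 under 4. That pattern was held by 265 of 45037 probe sets (0.588%), and since it is what the genes were chosen for, nothing is read from the excess. Krt18, Krt19 and Gjb2 stood at 4 or above on 10 arrays and Krt7 on 8.

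**Figure D1:**
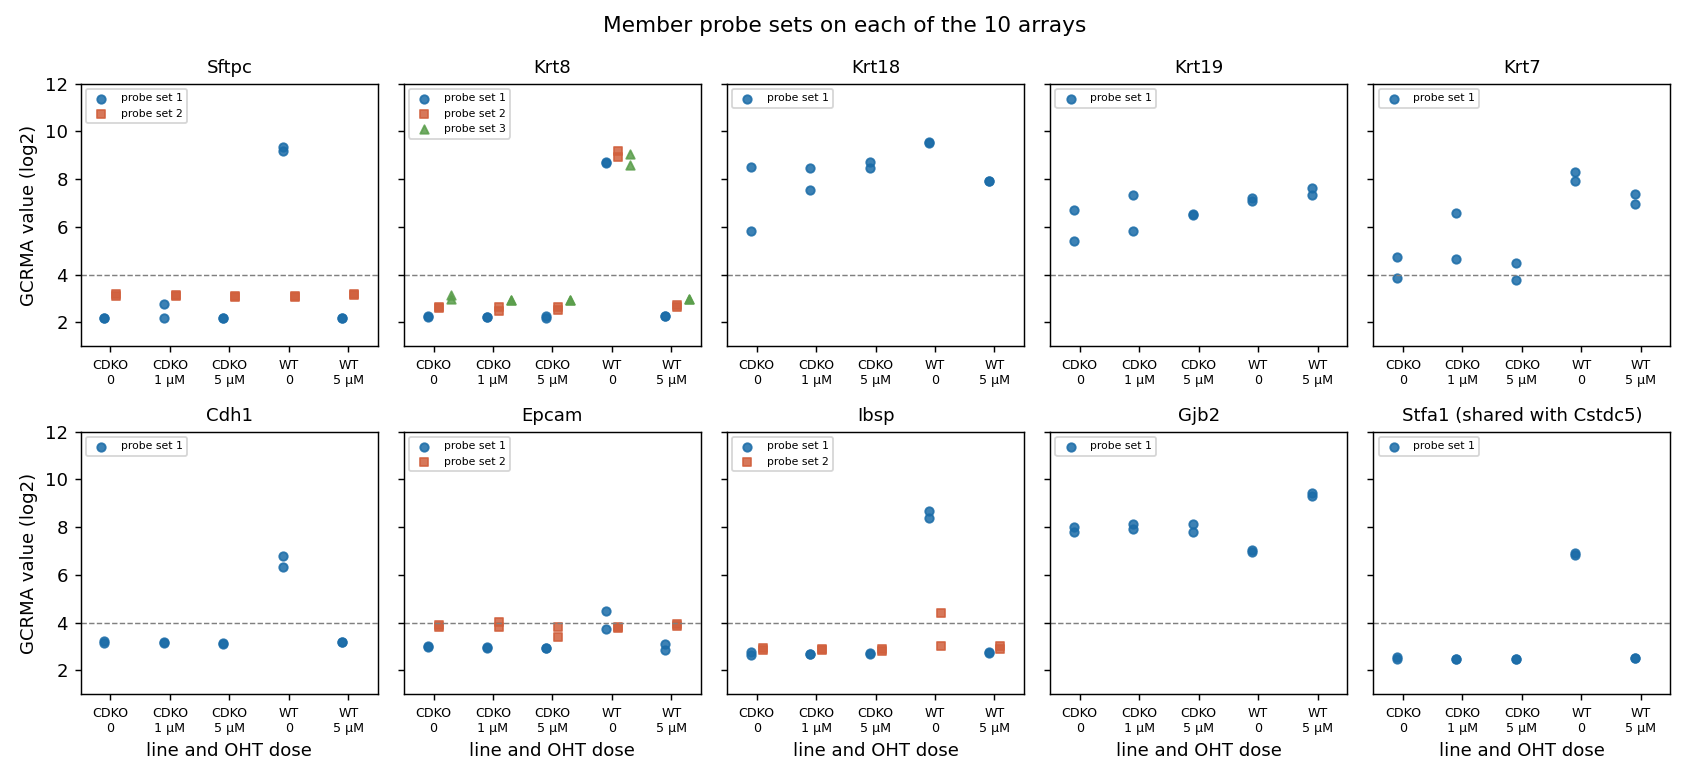
Log2 GCRMA value (y axis) of every probe set of the 10 genes on each of the 10 arrays, by line and OHT dose (x axis); each point is 1 array, colours and shapes are probe sets of a gene and the dashed line is the background level of 4. Sftpc, Krt8, Cdh1, Ibsp and the probe set shared by Stfa1 and Cstdc5 rise above the line in untreated WT alone, while Gjb2 is lowest there (7.05 and 6.96).

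Sftpc had the highest value of the first set. Its first probe set read 9.17 and 9.33 in untreated WT, 2.20 and 2.20 in WT at 5 µM, 2.20 and 2.17 in untreated CDKO, 2.76 and 2.18 in CDKO at 1 µM and 2.18 and 2.17 in CDKO at 5 µM. The untreated WT arrays did not overlap with the rest, and the gap between the lower of them and the highest other array was 6.41. The mean in untreated WT was 9.25 ± 0.11 (SD, n = 2). The second probe set of Sftpc, whose suffix marks probes that can match other transcripts, read 3.06 to 3.18 on all 10 arrays and did not show the difference.

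Krt8 gave the same picture with each of its 3 probe sets. The first read 8.71 and 8.69 in untreated WT and 2.20 to 2.28 on the other 8 arrays, the second 9.16 and 8.92 against 2.49 to 2.72, and the third 8.59 and 9.04 against 2.92 to 3.15. The gaps were 6.41, 6.20 and 5.44, which ranked 1, 3 and 5 among all probe sets, with Sftpc at 2 and Ibsp at 4. Since the genes were chosen for a signal in untreated WT alone, nothing is read from these ranks.

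Krt18, the partner of Krt8 and its neighbour on chromosome 15, did not share this pattern. It read 9.54 and 9.50 in untreated WT, 7.93 and 7.91 in WT at 5 µM, 5.84 and 8.51 in untreated CDKO, 8.47 and 7.54 in CDKO at 1 µM and 8.71 and 8.46 in CDKO at 5 µM. The untreated WT mean was 9.52 ± 0.02 (SD, n = 2). Untreated WT was again highest and did not overlap with the rest, but only by 0.79 over the highest other array. CDKO untreated replicate 1 was the lowest array. The coding gene on the other side of Krt18, the translation factor gene Eif4b, stood at 10.79 to 11.37 on all arrays, and Krt78, on the other side of Krt8, at 2.85 to 3.09.

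The other simple keratins were also present outside untreated WT. Krt7 read 8.28 and 7.94 in untreated WT, 6.95 and 7.36 in WT at 5 µM, 3.87 and 4.72 in untreated CDKO, 4.65 and 6.59 in CDKO at 1 µM and 3.76 and 4.48 in CDKO at 5 µM. All 4 WT arrays lay above all 6 CDKO arrays, and the highest CDKO array was the one with the raised 18S control. Krt19 read 7.20 and 7.07 in untreated WT, 7.32 and 7.63 in WT at 5 µM, 5.40 and 6.69 in untreated CDKO, 5.83 and 7.35 in CDKO at 1 µM and 6.52 and 6.5 in CDKO at 5 µM. Its highest arrays were those of treated WT, and untreated WT lay within the range of the others.

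Cdh1 read 6.78 and 6.34 in untreated WT and 3.11 to 3.24 on the other 8 arrays, a gap of 3.10. It was the member closest to the background level among those above it in both untreated WT arrays. Epcam lay just outside: its first probe set read 4.47 and 3.72 in untreated WT, so that only 1 array passed the level of 4, and 2.86 to 3.11 elsewhere. Its second probe set read 3.42 to 4.03 on all arrays with no group apart. Without WT untreated replicate 2, Epcam joined the first set, which then held 6 genes. The count was 5 when any other array was left out.

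Ibsp read 8.40 and 8.68 in untreated WT and 2.66 to 2.78 on the other 8 arrays with its first probe set, a gap of 5.63. Its second probe set read 3.01 and 4.41 in untreated WT and 2.80 to 3.04 elsewhere, so it passed the background level on 1 array only. The probe set shared by Stfa1 and Cstdc5 read 6.82 and 6.92 in untreated WT and 2.47 to 2.55 elsewhere, and which of these near relatives gave the signal cannot be told from it.

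Gjb2 ran the opposite way. It read 7.05 and 6.96 in untreated WT, 9.45 and 9.31 in WT at 5 µM, 7.81 and 7.99 in untreated CDKO, 7.94 and 8.14 in CDKO at 1 µM and 7.79 and 8.15 in CDKO at 5 µM. Untreated WT was the lowest group, treated WT the highest, and neither overlapped with the CDKO arrays, whose 3 groups lay within 7.79 to 8.15. The 10 genes therefore do not move as 1 block: Gjb2 was lower in untreated WT than in any other group.

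**Figure D2:**
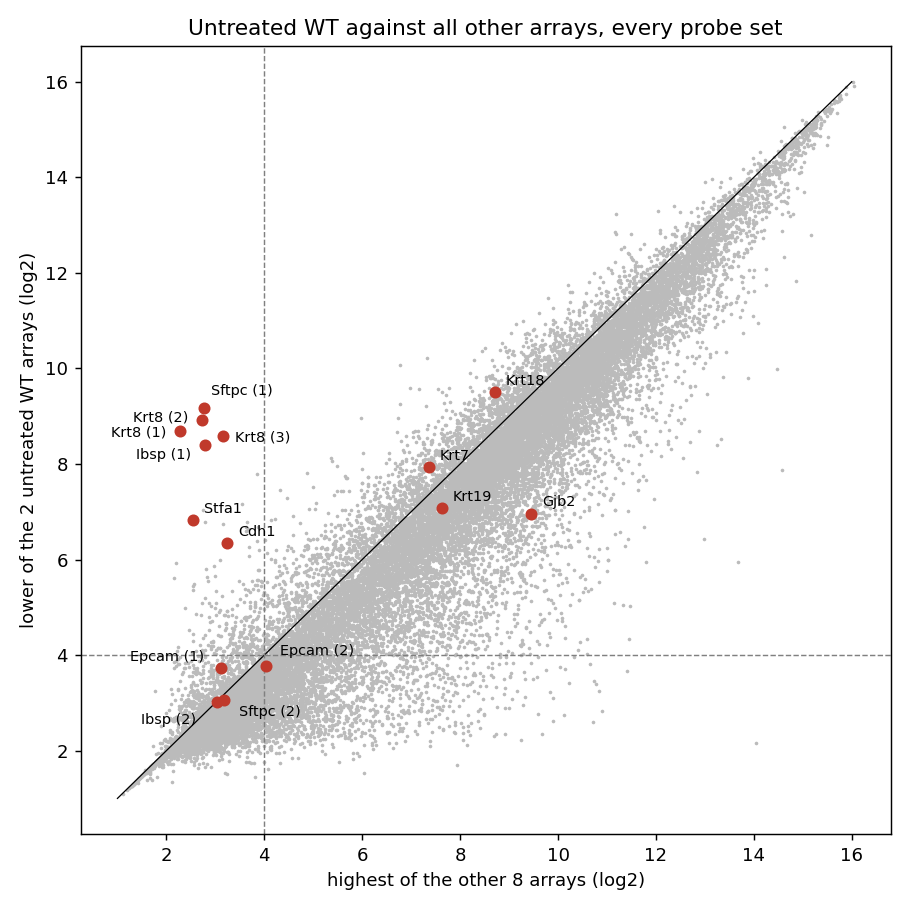
The lower of the 2 untreated WT arrays (y axis, log2) against the highest of the other 8 arrays (x axis, log2), for every probe set (grey) and the 15 member probe sets (red, numbered where a gene has several); dashed lines mark the background level of 4 and the solid line marks equal values. Sftpc, Krt8 and Ibsp have the 5 widest gaps of all probe sets, Epcam sits near the corner of both dashed lines, and Krt19 and Gjb2 lie below the line of equal values. Several of the genes were chosen for standing above background in untreated WT alone, so nothing is read from the width of their gaps.

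The 18S control was also high on 1 array of another line and dose. In CDKO 1 µM replicate 2 the control read 10.16, while Sftpc read 2.18, the 3 Krt8 probe sets 2.23, 2.65 and 2.94, Ibsp 2.70, Cdh1 3.14 and the shared stefin probe set 2.49. These values were all under 4. Krt7 (6.59) and Krt19 (7.35) were the highest of the 6 CDKO arrays there, and the part of the control in these values, or in those of untreated WT, was not tested.

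**Figure D3:**
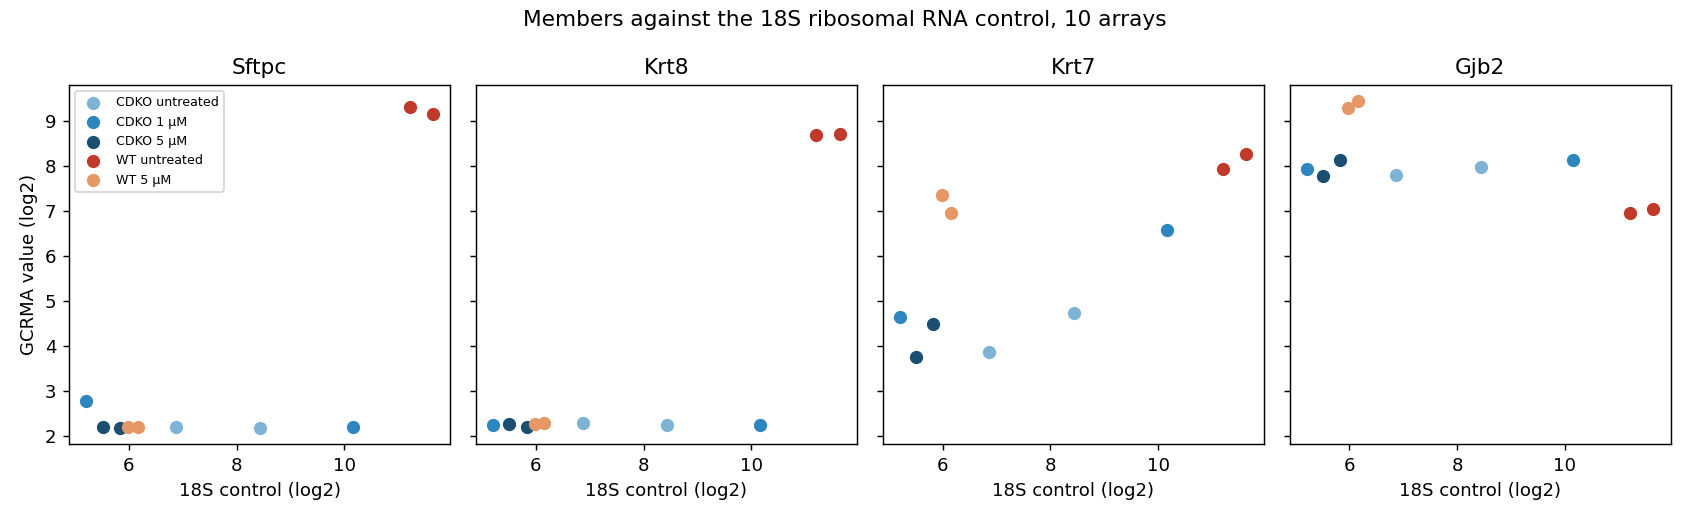
Value of the first probe set of Sftpc, Krt8, Krt7 and Gjb2 (y axis, log2) against the mean of the 18S ribosomal RNA control probe sets (x axis, log2); each point is 1 of the 10 arrays, coloured by group. The CDKO 1 µM array with a control of 10.16 stays at 2.18 for Sftpc and reads 6.59 for Krt7.

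Comparisons between the other groups test the drug and the line on arrays the choice of genes relied on less. Genes seen in untreated WT alone were by that choice low everywhere else. The untreated WT arrays still entered the pooled spread and the filter of the fit. Of the 15 probe sets, 12 had a highest group mean of at least 4 and were tested. In these comparisons only Krt18, Krt19, Krt7 and Gjb2 had a compared group at 4 or above. In CDKO cells at 5 µM against untreated CDKO, 0 of the 4 passed limma's test at an adjusted p under 0.05 (0 at an unadjusted p under 0.05), where 0.145% of all probe sets tested passed. At 1 µM against untreated CDKO 0 of the 4 passed either way, and 0% of all probe sets passed (710 of 20681 had an unadjusted p under 0.05).

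In those CDKO comparisons Krt18 differed by 1.41 ± 0.76 (log2, SE, n = 2 arrays each) at 5 µM (adjusted p = 0.698) and by 0.83 ± 0.76 at 1 µM (adjusted p = 0.887). Its untreated replicates differed from each other by more than these amounts. Without CDKO untreated replicate 2 the difference at 5 µM was 2.75 and passed limma's test (adjusted p = 0.0461), the only one of 18 alternatives to do so, in which adjusted p ran from 0.0461 to 1.0. Without CDKO untreated replicate 1 the difference at 1 µM turned to -0.50. Gjb2 differed by 0.07 ± 0.21 and 0.14 ± 0.21 at 5 µM and 1 µM. Krt19 differed by 0.47 ± 0.55 and 0.55 ± 0.55, and Krt7 by -0.17 ± 0.62 and 1.32 ± 0.62, in the same order.

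Between the lines on 5 µM, Gjb2 was lower in CDKO than in WT cells by -1.41 ± 0.21 (7.97 against 9.38, limma adjusted p = 0.0256). It was 1 of the 4 expressed members that passed, where 1.80% of all probe sets tested passed (0.943% higher and 0.856% lower). Both CDKO arrays lay below both WT arrays. The call was lost without CDKO 5 µM replicate 1 (adjusted p = 0.0731), WT untreated replicate 1 (0.0740) or 2 (0.0747), and WT 5 µM replicate 1 (0.241) or 2 (0.192), and with the compared groups alone (0.0966). It held in 11 of 18 alternatives in all, with limma adjusted p from 0.0158 to 0.241. Krt7 differed by -3.03 ± 0.62 (4.12 against 7.16) and did not pass (limma adjusted p = 0.0654). It passed without either CDKO 1 µM array (0.0217 each) and with array weights (0.0361), in 3 of 18 alternatives. Krt19 differed by -0.96 ± 0.55 and Krt18 by 0.66 ± 0.76, neither passing.

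Genes that belong with the members were then read from lists written from general knowledge. For these other genes, limma's test of WT cells at 5 µM against untreated WT called 9.23% of all probe sets (3.51% higher, 5.73% lower). With array weights it called 12458 of 20681 and with the compared groups alone 11308, and list counts under those settings stand beside these totals. The test of untreated CDKO against untreated WT called 6.58% (2.30% higher, 4.28% lower). The 2 comparisons share the untreated WT arrays. A gene counted as called passed at an adjusted p under 0.05 over all 20681 probe sets tested. A gene above 4 in a single group entered the test through that group and could be called in 1 direction only. Such genes are given by their levels, and nothing is read from their calls. Of 18194 named genes, 10623 had a group mean of at least 4 when read from 1 probe set each. Counts of list genes under background stand beside that share, and many genes of any list would be there.

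The lung genes measured beside Sftpc were mostly either under background on every array or present on every array. The other surfactant protein genes Sftpa1, Sftpb and Sftpd and the lung regulator Nkx2-1 read 1.84 to 2.49 on every array, and 12 of the 23 other lung genes measured were under 4 on all 10 arrays. Another 8 stood at 4 or above on every array. They included Abca3, the lipid transporter of type II cells (8.85 and 8.78 in untreated WT, 7.71 to 8.61 elsewhere), the transcription factor gene Etv5 (8.94 to 9.77 over all arrays) and the lysozyme genes Lyz1 and Lyz2. Scgb1a1, the secretoglobin of club cells, and Hopx, an alveolar type I marker, were the 2 of the 23 above 4 in untreated WT alone. Scgb1a1 read 4.21 and 5.08 in untreated WT and 2.59 to 2.68 elsewhere. Hopx read 4.94 and 4.44 in untreated WT and 2.87 to 3.34 elsewhere, while its second probe set was under 4 on all arrays (3.17 and 3.36 in untreated WT).

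In WT cells at 5 µM 2 of the 23 lung genes rose, the water channel gene Aqp5 by 2.81 ± 0.52 (5.70 to 8.51) and the protease gene Ctsh by 0.98 ± 0.22 (10.06 to 11.04). Both calls were lost without any 1 of the 4 WT arrays. The 2 called lower were Scgb1a1 and Hopx, which entered the test through untreated WT and could only be called lower. Untreated CDKO cells were below untreated WT for Lpcat1 (-1.82 ± 0.30, limma adjusted p = 0.0157), an enzyme of surfactant lipid synthesis. The count of lower lung genes there was 3, but the other 2 were Scgb1a1 and Hopx. Their direction was fixed, so nothing is read from that count. The Lpcat1 call was lost without CDKO untreated replicate 2 (adjusted p = 0.0618 by limma), WT untreated replicate 1 (0.101) or replicate 2 (0.0997), and with the compared groups alone (0.0624). The lung counts in WT cells were 6 higher and 4 lower both with array weights and with the compared groups alone. Those settings called 12458 and 11308 of all 20681 probe sets tested. The count in untreated CDKO was 0 with the compared groups alone. The median difference over the 11 lung genes tested was 0.54 in WT cells and -0.75 in untreated CDKO, against -0.06 and 0.00 over all probe sets tested, and 2 of the 11 had entered through untreated WT. Ager, the alveolar type I receptor gene, was named after its values were seen. Its probe set with the lower mean read 5.92 and 6.43 in untreated WT and 2.13 to 2.20 elsewhere. The other read 4.53 and 3.51 in untreated WT, 4.69 and 3.84 in treated WT and 3.11 to 3.5 in CDKO. All WT arrays thus lay above all CDKO arrays there, by little and near background.

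Ibsp shared its pattern with 0 of the 18 other bone and matrix genes measured. Its neighbours on chromosome 5, Dmp1 and Mepe, which encode matrix proteins of the same family in bone and teeth, read 2.70 to 2.93 and 2.98 to 3.14 on all arrays. Of 18 other bone and matrix genes measured, 9 were under 4 on every array, among them Alpl, the alkaline phosphatase of mineralising cells (2.44 to 2.68). The 6 that were at 4 or above on all arrays included Sparc, Col1a1, Col1a2 and Postn, which fibroblasts also express. In both comparisons 0 of the 18 were called in either direction, though 1 rose in WT cells without a CDKO 1 µM array, and 1 rose and 1 fell without a CDKO 5 µM array. With array weights 2 rose and 3 fell in WT cells, and with the compared groups alone 3 rose and 3 fell. Without a CDKO 5 µM array, untreated CDKO cells were also above untreated WT for 1.

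Among 13 other keratins, 9 were under 4 on every array, including the epidermal Krt1 and Krt14, and 0 shared the pattern of Krt8. Krt80, the neighbour of Krt7, was the 1 of 13 called in WT cells at 5 µM. Its mean was 5.11 in that group and 3.61 to 3.91 in the other 4. Krt80 thus entered the test through treated WT and could only be called higher. The call was lost without any 1 of the 4 WT arrays, and the higher count was 2 without either CDKO 1 µM array. With array weights or with the compared groups alone it was 2 higher and 1 lower. Untreated CDKO against untreated WT called 0 of the 13, or 1 in each direction without either CDKO 1 µM array. Krt20, an intestinal keratin, read 4.31 and 4.32 in untreated WT and 5.34 to 6.58 elsewhere, and passed in neither comparison (limma adjusted p = 0.0586 and 0.0553).

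**Figure D4:**
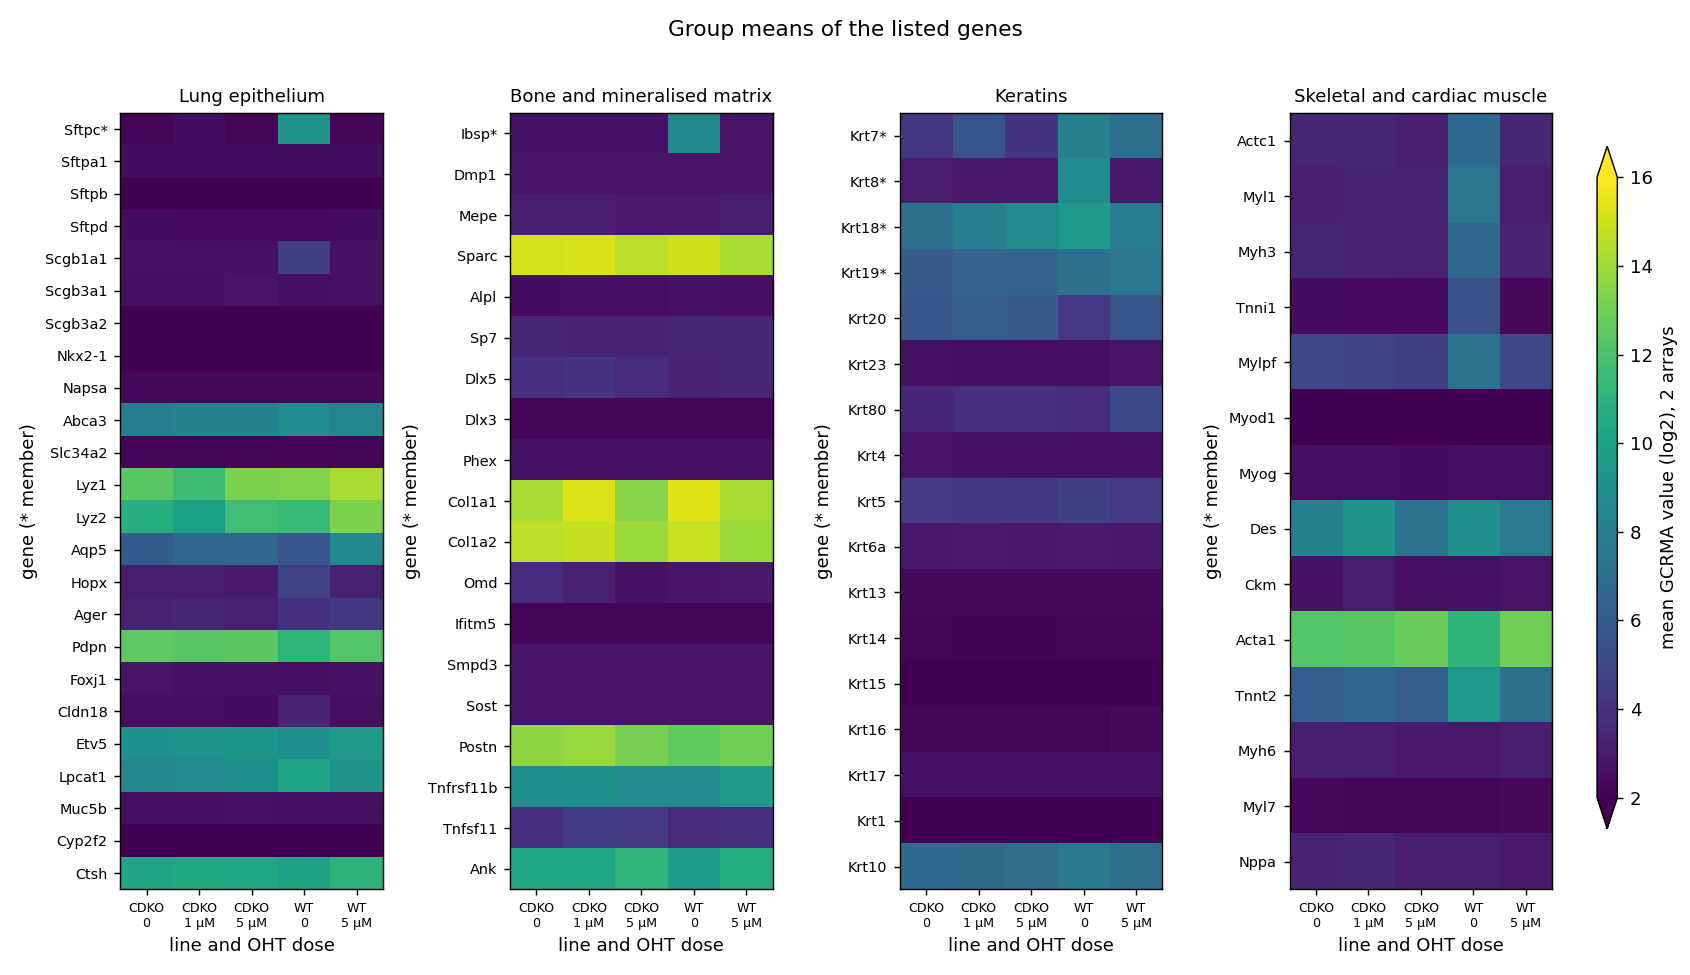
Group mean of the log2 GCRMA value (colour, 2 arrays each) for the genes of the lung, bone, keratin and muscle lists (rows), by line and OHT dose (columns); an asterisk marks a member. Sftpc and Ibsp are lit in the untreated WT column while Sftpa1, Sftpb, Dmp1 and Mepe stay dark across all columns, and Actc1, Myl1, Myh3 and Tnni1 are brighter there than elsewhere.

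Of 38 other epithelial adhesion and junction genes, 28 were under 4 on every array and 0 were called in either comparison. Leaving out single arrays gave at most 1. In WT cells 2 rose and 2 fell with array weights, and likewise with the compared groups alone. Those on all arrays included the desmosome and junction genes Jup (8.32 to 11.02) and Pkp2 (9.30 to 11.10). Cdh3, the P-cadherin gene next to Cdh1, stood at 3.53 and 3.53 in untreated WT and 3.25 to 6.53 elsewhere. Tango6, on the other side of Cdh1, stood at 6.06 and 6.28 in untreated WT and 6.12 to 6.64 elsewhere.

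Of 23 epithelial transcription and splicing factors 16 were under 4 on every array, including Grhl2 (2.92 to 3.33) and Esrp1 (2.17 to 2.20), regulators of epithelial genes. Sox2 was the 1 of 23 called in untreated CDKO against untreated WT. Lying near the background level and highest in untreated WT, it had little room to be called in the other direction. It read 4.63 and 4.57 in untreated WT and 3.18 to 4.05 elsewhere, and its call held in 8 of 17 alternatives. In WT cells 0 of the 23 were called, with up to 2 when a CDKO array was left out, 2 higher and 2 lower with array weights, and 1 higher and 3 lower with the compared groups alone. The 9 genes of epithelial-mesenchymal transition stood at 4 or above on every array. Zeb2, a repressor of Cdh1, read 10.44 and 10.99 in untreated WT, where Cdh1 was present, and 7.68 to 8.91 elsewhere. It was the 1 of the 9 called in untreated CDKO against untreated WT (-2.30 ± 0.49, limma adjusted p = 0.0382, 0.0233 to 0.228 over the alternatives). That call was lost without CDKO untreated replicate 2 or any 1 of the WT arrays, with no filter and with the compared groups alone, and held in 10 of 18 alternatives in all. In WT cells 0 of the 9 were called, 1 without either untreated CDKO array and 3 without either CDKO 1 µM array. With array weights 2 of the 9 rose and 4 fell, and with the compared groups alone 1 rose and 4 fell. Snai2 read 12.74 and 12.71 in untreated WT and 11.33 to 12.59 elsewhere.

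Among 9 other connexins 5 were under 4 on every array, and 0 were called in either comparison (1 in WT cells without a CDKO 1 µM array, and 2 lower with array weights or with the compared groups alone). Gja1, the main connexin of fibroblasts, read 12.64 to 13.21 on all arrays with its probe set of highest mean. Another Gja1 probe set read as low as 3.81 in untreated WT and up to 10.65 on the other arrays. Gjb6, a neighbour of Gjb2 that joins it in gap junctions, read 2.79 to 3.14. Gja3, the other neighbour, read 4.11 and 4.03 in untreated WT and 3.27 to 3.98 elsewhere.

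Among 7 stefins and cystatins with a probe set of their own, Stfa3 shared the pattern of the Stfa1 and Cstdc5 probe set. It read 5.74 and 5.09 in untreated WT and 2.74 to 2.87 elsewhere. It entered the test through untreated WT and could only be called lower, so its calls are not read. Cst6, an epidermal cystatin, rose in WT cells by 2.76 ± 0.45 (4.94 to 7.70), and that call was lost without any 1 of the WT arrays. The higher count was 3 with array weights or with the compared groups alone. Csta1 (2.36 to 2.49) and Stfa2l1 (3.23 to 3.8) stayed under 4 on all arrays. Probe sets of these near-identical genes can share transcripts, so the members of the family are not independent.

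The genes closest to Sftpc over the 10 arrays, by root mean square difference of log2 values among 16314 named genes, were Ibsp (0.55) and Krt8 (0.70). After these members came Gprin3 (1.04), the fetal muscle myosin light chain gene Myl1 (1.24), the Wnt antagonist gene Sfrp2 (1.27), the DNA repair gene Rad54l (1.40), the exonuclease gene Xrn1 (1.40), the acute-phase gene Saa3 (1.43), Cdh1 (1.47) and the haptoglobin gene Hp (1.48). The likeness of these 10 genes rests on the 2 untreated WT arrays, where all of them were high. Gprin3 stood at 7.04 or above in untreated WT and at most 2.75 elsewhere, and Hp at 5.64 or above and at most 2.83 elsewhere. All but Sfrp2, which reached 4.59 outside untreated WT, were under 4 on the other 8 arrays.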

How the data were processed

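RNA taken with Trizol from mouse embryonic fibroblasts was measured on 10 Affymetrix arrays. The deposited table holds a log2 signal for each probe set on each array, and the submitters' processing notes name GCRMA, with no version. Its log2 scale was read from the values (1.09 to 16.0, array medians 3.03 to 3.16). Of 45101 probe sets, 64 controls were left out. Symbols came from GEO's platform annotation: 34958 probe sets had 1 symbol, 932 several and 9211 none, and 34754 were updated through Entrez IDs to RefSeq. A gene of a list was read from its probe set with the highest mean over all arrays.

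Group means were compared in R 4.3.3 with limma 3.58.1 (lmFit, eBayes, 5 groups, 5 residual degrees of freedom, Benjamini-Hochberg over the 20681 probe sets whose best group averaged 4 or more). Spread is pooled over all groups. The median SD between replicates was 0.10 and 0.07 in the WT groups and 0.29 to 0.34 in the CDKO groups. On simulated data for CDKO against WT at 5 µM, the fit on 19810 probe sets recovered 4%, 62%, 76% and 92% of changes of 1, 2, 3 and 4, 50 each. Of 125 calls, 8 were unchanged probe sets. Each simulated probe set had the same spread in every group, unlike the measured CDKO and WT arrays. Changes were set only in probe sets well above background, so recovery in the measured data may differ. Members and lists were chosen with earlier results of these data known. Named genes are all members, up to 4 called genes per list with the largest change, or the highest otherwise, and the 10 genes nearest to Sftpc. Other genes named from the lists were chosen after their values were seen. Alternatives were other filters, centring, quantile normalization, 1 probe set per gene, other background levels, array weights, blocking on replicate number, fitting only the groups compared, and each array left out. The small number of arrays limits the precision.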

Additional observations from a re-analysis of the deposited data

How the results depend on the processing

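The 5 genes above background in untreated WT alone numbered 4 with the level set at 3 and 5 with it at 5, after centring, after quantile normalization and with 1 probe set per gene. The differences of members between untreated WT and the other groups kept within 1 SD in 57 of 60 recalculations; Krt18 went from 1.60 to 1.51 against treated WT under quantile normalization. The gene lost at 3 was Cdh1. WT at 5 µM against untreated gave 1909 and then 12458 with array weights, 11308 with the compared groups alone, 937 with 1 probe set per gene, and 65 (without WT 5 µM replicate 2) to 4498 (without a CDKO 1 µM array) when 1 array was left out. Untreated CDKO against untreated WT gave 1360 and then 489 with the compared groups alone, 422 with 1 probe set per gene, and 255 (without WT untreated replicate 2) to 3217 (without a CDKO 1 µM array). CDKO at 5 µM against untreated gave 30 and then 46 without a filter, 2 with array weights, 0 with the compared groups alone (993 at an unadjusted p under 0.05), and 0 (without CDKO untreated replicate 1) to 169 (without CDKO 5 µM replicate 2). CDKO at 1 µM gave 0, and 0 to 521 (without CDKO 1 µM replicate 1). CDKO against WT at 5 µM gave 372 and then 2 with the compared groups alone, 156 with 1 probe set per gene, and 29 (without a WT 5 µM array) to 591 (without a CDKO 1 µM array). The causes were not tested.

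Replicate numbers were not taken as pairs: deviations of same-numbered arrays correlated from -0.453 to 0.431 between groups. With a replicate block the counts were 1190, 970, 3, 0 and 197 in the same order, and Gjb2 between the lines at 5 µM had a limma adjusted p = 0.0524. Under that block Zeb2 and Sox2 in untreated CDKO were at 0.0591 and 0.0646, and Ctsh in WT cells at 0.0581.

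Small differences in CDKO cells changed sign without 1 array. Over the arrays left out, Krt18 at 1 µM ran from -0.50 to 2.16, Krt19 at 5 µM from -0.18 to 1.12 and at 1 µM from -0.21 to 1.30, Krt7 at 5 µM from -0.60 to 0.26, and Gjb2 at 5 µM from -0.11 to 0.24. Without CDKO untreated replicate 1, Krt18 and Krt19 at 1 µM were -0.50 and -0.10, and Krt19 and Gjb2 at 5 µM were -0.18 and -0.03. Krt19 at 1 µM was -0.21 without CDKO 1 µM replicate 2. Krt7 at 5 µM was 0.26 without CDKO untreated replicate 2 and 0.19 without CDKO 5 µM replicate 1. Gjb2 at 5 µM was -0.11 without CDKO 5 µM replicate 2.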

Other observations

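Untreated WT, whose arrays both had a raised 18S control, was the group with most probe sets above background in it alone. It alone stood at 4 or above for 265 probe sets, against 52 for WT at 5 µM, 48 for CDKO at 5 µM, 11 for untreated CDKO and 6 for CDKO at 1 µM. The lower untreated WT array exceeded all others by at least 4 for 8 of the 265, and for 0 probe sets in each of the other groups. The part of the 18S control in these counts was not tested.

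Of 14 muscle genes measured, 4 stood above 4 in untreated WT alone, 6 were under 4 on every array and 4 were at 4 or above on every array. The first 4 were Actc1, Myl1, Myh3 and Tnni1, which encode contractile proteins of embryonic muscle. Myl1 read 7.82 and 7.16 there and 3.16 to 3.55 elsewhere. Actc1 read 6.68 and 6.90 there and 3.08 to 3.63 elsewhere. These 4 entered the test through untreated WT and could only be called lower, so nothing is read from their calls. Of the genes present on every array, Mylpf, a myosin light chain gene, was lower in WT cells at 5 µM (7.28 to 5.01, limma adjusted p = 0.00596), a call lost without any 1 of the WT arrays. Acta1 rose by 1.93 ± 0.46 (limma adjusted p = 0.0443), a call lost without any 1 of the WT or CDKO 5 µM arrays. In untreated CDKO cells Mylpf (5.01, limma adjusted p = 0.00516) and the troponin gene Tnnt2 (6.23 against 9.49, limma adjusted p = 0.0242) were lower than in untreated WT. The Tnnt2 call held in 11 of 18 alternatives and was lost without any 1 of the untreated CDKO or WT arrays. The muscle regulators Myod1 and Myog were under 4 on all arrays.

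Upk3b, a gene of mesothelium, the lining of body cavities that also makes Krt8, Krt18, Krt19 and Krt7, read 4.98 and 5.60 in untreated WT and 2.00 to 2.37 elsewhere with 1 probe set, and 1.97 to 2.03 on all arrays with the other. It entered the test through untreated WT and could only be called lower, so nothing is read from its calls. Msln, another mesothelial gene, rose in WT cells (4.65 to 5.76), a call lost without any 1 of the WT arrays. Msln was lower in untreated CDKO by -0.93 ± 0.21 (limma adjusted p = 0.0439), which passed in 3 of 17 alternatives. Upk3b and Msln were the called genes among 6 mesothelial genes that were no members. Of the 6, 2 were under 4 on every array, 2 stood at 4 or above on every array, and only Upk3b was above 4 in untreated WT alone. Of 12 measured pluripotency genes, 7 trophoblast genes and 7 erythroid genes, all were under 4 on every array. So were 17 of 25 neutrophil and myeloid genes, 11 of 14 cartilage genes, 10 of 12 liver genes, 11 of 13 pancreas and gut genes, 9 of 11 kidney genes, 8 of 10 endothelial genes and 5 of 12 neural genes. Of these lists, 1 endothelial gene (Emcn) was higher and 1 neural gene (S100b) lower in untreated CDKO than in WT without treatment, both calls lost without either untreated WT array.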
